A study of Sus scrofa with 12 samples.

Results

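The 10 genes described here, FOS, FOSB, JUN, JUNB, EGR1, ATF3, IER2, MYC, NR4A1 and NR4A3, are immediate early genes. They were taken by symbol from the 25880 genes counted in each library, and each had 1 row. The libraries came from longissimus dorsi, the loin muscle, of 12 Iberian pigs, which were castrated males of 1 closed commercial population. The pigs were finished free-range on acorns and grass, and the muscle was collected after slaughter, frozen in liquid nitrogen and stored frozen. The groups were 6 pigs of high (High MB) and 6 of low (Low MB) breeding value for myoglobin content, the oxygen-binding pigment of muscle, with no other treatment. Measured myoglobin ran from 2.376 to 2.559 mg/g in the High MB group and from 1.226 to 1.580 mg/g in the Low MB group. The groups differ in breeding value by selection of extremes, so they are not a model of a single gene or treatment.

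Immediate early genes are transcribed within minutes of a stimulus, without the need for new protein, and most of their mRNAs are short-lived. In skeletal muscle they are known to be induced by contraction, calcium, stretch, stress hormones and lack of oxygen. FOS, FOSB, JUN and JUNB encode subunits of AP-1, a dimeric transcription factor, and ATF3 is a stress-induced relative that can pair with JUN proteins. EGR1 is a zinc-finger factor, IER2 a nuclear protein of the early growth response, MYC a regulator of growth and ribosome production, and NR4A1 and NR4A3 are orphan nuclear receptors. Their transcription is classically driven through serum response factor, which binds the CArG box, and through CREB, which binds the cyclic AMP response element.

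The CArG boxes near the members are shown because this element is the textbook link between the stimulus and these genes. The 1000 bases before the most upstream annotated start codon were searched on both strands in the RefSeq annotation of Sscrofa11.1, the build to which the reads were mapped. A CArG box was present in 4 of the 9 members with an annotated coding sequence, namely FOS, FOSB, EGR1 and MYC, and in 5.09% of 20615 protein-coding genes. Each is printed with 10 bases on either side, 5′ to 3′ on the strand of the gene, with the CArG box in capitals.
FOS, chr7:98449042-98449071, forward strand: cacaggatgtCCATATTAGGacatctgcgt
FOSB, chr6:51837436-51837465, forward strand: gcgccgagctCCTTATATGGctaattgcgt
EGR1, chr2:140440976-140441005, forward strand: cccggaaacgCCATATAAGGagcaggaagg
EGR1, chr2:140441014-140441043, forward strand: ccggaaccacCCTTATTTGGgcagcgcctt
EGR1, chr2:140441030-140441059, forward strand: ttgggcagcgCCTTATTTGGagcgccccga
EGR1, chr2:140441298-140441327, forward strand: gccggtcttgCCATATTAGGgcttcctgct
EGR1, chr2:140441320-140441349, forward strand: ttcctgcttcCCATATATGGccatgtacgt
MYC, chr4:12460345-12460374, reverse strand: gcccaccggcCCTTTATAGGcgagggtctg

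The box of FOS ended 446 bases before the start codon and lay upstream of the annotated gene, whose RefSeq model begins at the start codon. The 5 boxes of EGR1 ended between 377 and 721 bases before its start codon and lay within an annotated exon, as did the box of FOSB, 821 bases before its start codon. The box of MYC ended 585 bases before the start codon and spanned the annotated gene start. The full cyclic AMP response element TGACGTCA was found in this window in 0 of the 9 members and in 2.49% of all genes. The AP-1 site, searched as TGACTCA and TGAGTCA, was found in 0 of the 9 members and in 12.8% of all genes. The windows were set by the start codon, and those of FOSB, JUNB, ATF3, IER2 and NR4A3 lay wholly inside the annotated gene, as did 33.3% of all windows. The window of ATF3 began 43154 bases into the gene, that of NR4A3 5247 and that of JUNB 2798 bases, so the counts of 0 say nothing about the bases before those gene starts. These matches are letters in a window and were not measured as bound sites.

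Between 38914271 and 91318334 reads per library were assigned to genes. Sequencing depth split them into 5 deep libraries (59227608 reads or more) and 7 standard ones (40001432 or fewer). The deep ones were those of pigs 4 and 6 in the High MB group and of pigs 1, 5 and 6 in the Low MB group, so each group held both depth classes. As a check for repeated libraries, the counts of each pair within a group were compared, and no pair agreed within sampling noise. The muscle markers ACTA1, CKM and TNNT3 together had between 31576 and 108797 CPM (counts scaled to a common library size after normalisation by the trimmed mean of M-values), with the lowest sum in High MB pig 2. That pig also had the highest sum of 5 macrophage markers, 97.1 CPM against 21.6 to 66.4 CPM in the others, and the highest sum of 3 neutrophil markers, none of which passed the filter, 3.84 CPM against 0.154 to 0.773 CPM. The part of other cells in the values of that pig was not tested. In bulk muscle, fewer cells of a type and less RNA per cell cannot be told apart. No gene of the 13373 tested was called between the groups (0%, edgeR quasi-likelihood test, adjusted p under 0.10 and absolute log2 fold change over 0.58), 8.46% had an unadjusted p under 0.05, and DESeq2 called 0.201% of 14417 genes.

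All 10 immediate early genes passed the filter on low counts, and 0 of them were called between High MB and Low MB by edgeR or by DESeq2. The edgeR p ran from 0.196 to 0.979 before and from 0.719 to 0.996 after adjustment over all genes, and 0 of the 10 had an unadjusted p under 0.05. The log2 fold change, given throughout as High MB minus Low MB, was negative for 8 members and positive for 2, with a median of -0.13 beside a median of -0.016 over all genes tested, of which 46.9% were positive. This median ran from -0.46 without High MB pig 2 to 0.15 without Low MB pig 4, so its direction depended on 1 pig, and in mean log2 CPM the difference of MYC was positive as well. In all 10 members the groups overlapped. The 2-sided exact permutation test of mean log2 CPM gave p between 0.229 and 0.907, where the smallest p that 6 pigs against 6 allow is 0.00216. The intervals were wide, reaching past a 2-fold difference in at least 1 direction for every member but JUN.

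**Figure D1:**
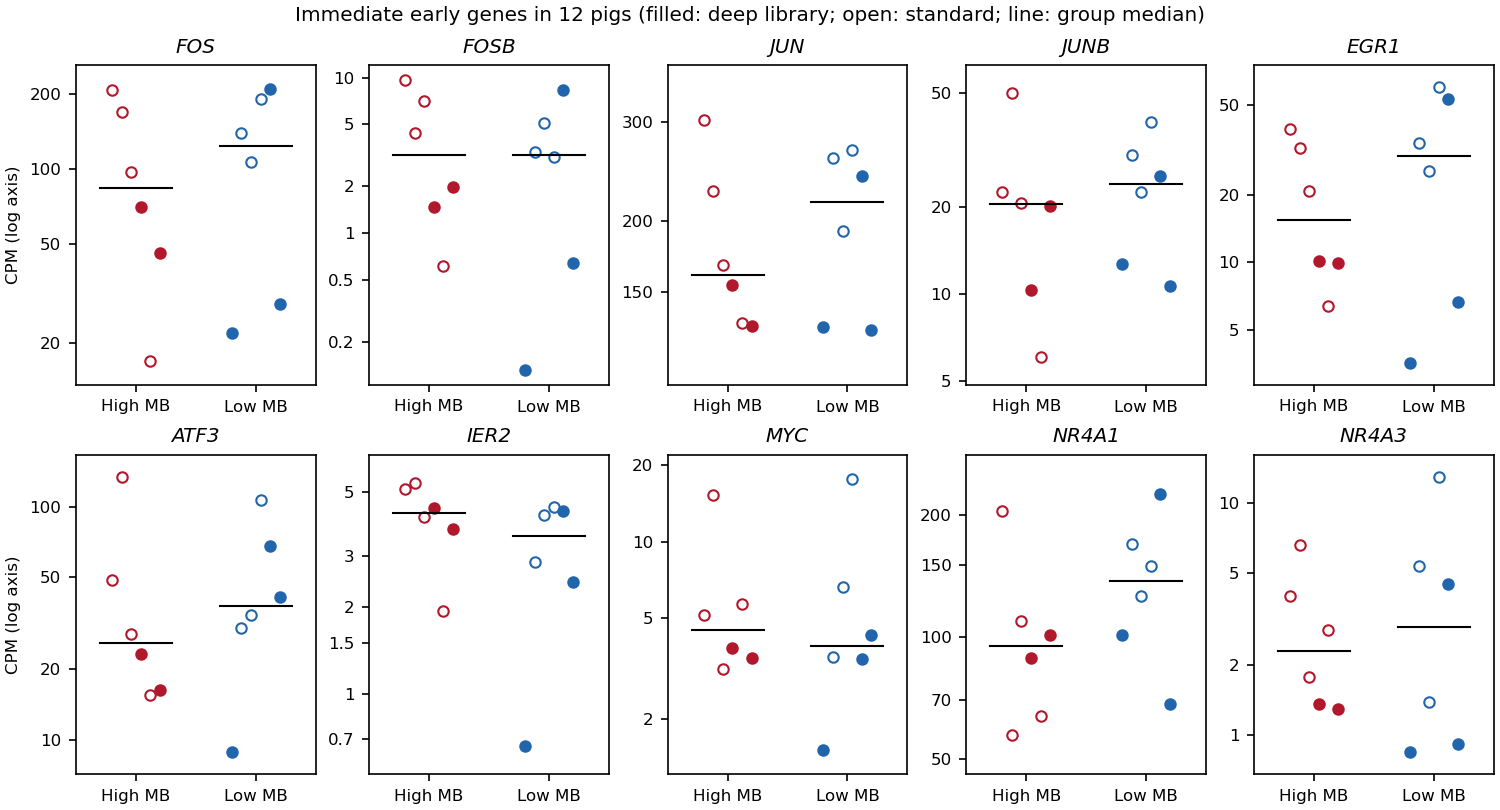
CPM of each immediate early gene (log axis) in the 6 High MB (red) and 6 Low MB pigs (blue), with 1 point per pig, filled for deep and open for standard libraries, and a line at the group median. In every panel the groups overlap, and FOS runs from 16.9 to 209.8 CPM over the 12 pigs.

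FOS (ENSSSCG00000002383, chr7:98449508-98451971, forward strand) had a lowest, median and highest value of 16.9, 83.9 and 209 CPM in the High MB group and of 21.9, 124 and 209.8 CPM in the Low MB group. Each group held pigs at both ends of the range, with Low MB pig 5 highest and High MB pig 5 lowest. The difference, as log2 fold change, was -0.20 (standard error 0.60, 95% confidence interval -1.47 to 1.08, edgeR adjusted p = 0.947). It turned to between 0.0062 and 0.055 when High MB pig 5, Low MB pig 4 or Low MB pig 5 was left out.

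FOSB (ENSSSCG00000031616, chr6:51836780-51844531, forward strand), the close relative of FOS, was counted between 9 and 521 times per library. Its values were 0.611, 3.19 and 9.60 CPM in the High MB group and 0.132, 3.18 and 8.29 CPM in the Low MB group, again as lowest, median and highest. The medians nearly coincided, and Low MB pig 1 lay far below all other pigs. A log2 fold change of 0.29 resulted (standard error 0.75, interval -1.32 to 1.90, edgeR adjusted p = 0.937), which was -0.14 without High MB pig 1 and -0.021 with the depth class as a covariate.

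JUN (ENSSSCG00000031912, chr6:153686425-153687635, forward strand), the partner of FOS in the classical AP-1 dimer, varied least of the 10. It had 130.5, 161 and 303 CPM in the High MB group and 128, 216 and 267 CPM in the Low MB group. Both groups reached down to the same level, and the Low MB median was exceeded by 2 High MB pigs. For JUN the log2 fold change was -0.13 (standard error 0.24), and the interval of -0.65 to 0.39, a ratio of 0.637 to 1.31, was the narrowest of the 10 members. The fold change ran from -0.32 without High MB pig 1 to -0.020 without Low MB pig 4.

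JUNB (ENSSSCG00000013735, chr2:66214086-66219435, reverse strand) encodes a JUN relative that is a weaker activator than JUN on many promoters. It had 6.07, 20.5 and 49.7 CPM in the High MB group and 10.7, 24.1 and 39.5 CPM in the Low MB group, so the High MB pigs held both extremes. For JUNB the log2 fold change was -0.12 (standard error 0.43, interval -1.03 to 0.79) and ranged from -0.54 without High MB pig 2, the highest pig, to 0.094 without Low MB pig 4.

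ATF3 (ENSSSCG00000015595, chr9:130772259-130829678, reverse strand) had 15.5, 25.9 and 134 CPM in the High MB group and 8.87, 37.6 and 107 CPM in the Low MB group. High MB pig 2 and Low MB pig 4 stood above the other pigs, of which the next highest had 67.7 CPM. Its log2 fold change was -0.12 (standard error 0.58, interval -1.36 to 1.13), -0.86 without High MB pig 2, 0.29 without Low MB pig 4 and -0.45 without both.

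EGR1 (ENSSSCG00000014336, chr2:140440829-140445302, forward strand) had 6.34, 15.4 and 39.3 CPM in the High MB group and 3.54, 29.6 and 60.3 CPM in the Low MB group. Low MB pigs 4 and 5 were above all High MB pigs, while Low MB pig 1 was below them all. For EGR1 the log2 fold change was -0.63 (standard error 0.61, interval -1.93 to 0.67, edgeR adjusted p = 0.795), which was -0.31 without Low MB pig 4 and -0.95 without High MB pig 1. The difference in mean log2 CPM was smaller, -0.33 (exact permutation p = 0.693).

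IER2 (ENSSSCG00000013753, chr2:65909638-65912491, reverse strand) had 1.93, 4.24 and 5.4 CPM in the High MB group and 0.661, 3.52 and 4.45 CPM in the Low MB group. High MB pigs 1 and 2 were above all Low MB pigs, and 5 High MB pigs exceeded the median of the other group. Its difference was positive, with a log2 fold change of 0.39 (standard error 0.37, interval -0.39 to 1.17, edgeR adjusted p = 0.788) that was 0.17 without Low MB pig 1, the lowest of all pigs, and 0.53 without High MB pig 5.

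MYC (ENSSSCG00000005965, chr4:12455141-12460360, reverse strand) had 3.13, 4.48 and 15.2 CPM in the High MB group and 1.51, 3.88 and 17.6 CPM in the Low MB group. Low MB pig 4 and High MB pig 2 held the highest values, and the remaining 10 pigs had at most 6.62 CPM. On the log2 scale the fold change was -0.014 (standard error 0.53, interval -1.14 to 1.12), its sign turned under upper-quartile scaling (0.026), and it moved from -0.52 without High MB pig 2 to 0.66 without Low MB pig 4. The difference in mean log2 CPM was 0.17 (exact permutation p = 0.799).

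NR4A1 (ENSSSCG00000031321, chr5:17403088-17407918, forward strand, a pseudogene without exons in this RefSeq release) had 57.4, 94.7 and 204 CPM in the High MB group and 68.1, 138 and 225 CPM in the Low MB group. Only High MB pig 1 was above the Low MB median, and High MB pig 2, high in most other members, was the lowest pig here. The fold change was -0.43 on the log2 scale (standard error 0.31, interval -1.10 to 0.25), with the lowest p of the members (edgeR p = 0.196, adjusted p = 0.719, exact permutation p = 0.229), and it stayed between -0.74 and -0.24 with any 1 pig left out.

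NR4A3 (ENSSSCG00000005385, chr1:241569867-241611735, forward strand) had 1.30, 2.31 and 6.60 CPM in the High MB group and 0.852, 2.92 and 12.9 CPM in the Low MB group. Low MB pig 4 was above all others, and the lowest values, under 1 CPM, were in Low MB pigs 1 and 6. The log2 fold change of -0.53 (standard error 0.63, interval -1.89 to 0.83) was 0.20 without Low MB pig 4, and the difference in mean log2 CPM was -0.090. On that second scale the difference was 0.59 for FOSB, 0.53 for IER2, -0.46 for NR4A1, -0.28 for JUNB, -0.22 for ATF3, -0.17 for FOS and -0.13 for JUN, so the order of the members by size of difference depended on the scale.

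Levels between genes were compared only per kilobase of RefSeq exon. NR4A1 has no exon in this RefSeq release, so it has no place in this order. JUN had the highest mean level over the 12 pigs, 160.3 CPM per kilobase, followed by FOS with 95.4, ATF3 with 21.0, EGR1 with 6.68, JUNB with 4.22, MYC with 2.49, IER2 with 1.27, FOSB with 0.819 and NR4A3 with 0.629. The range of single pigs was 106 to 249.8 CPM per kilobase for JUN and 14.8 to 184 for FOS, so these neighbours overlapped, as did all other neighbours in this order. The gene models of FOS and JUN hold little besides coding bases, 1143 of 1143 and 1008 of 1211, while that of JUNB holds 1044 of 5350, so the order depends on the models. The reads were counted by Ensembl gene ID, on exons that may differ from these RefSeq exons.

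**Figure D2:**
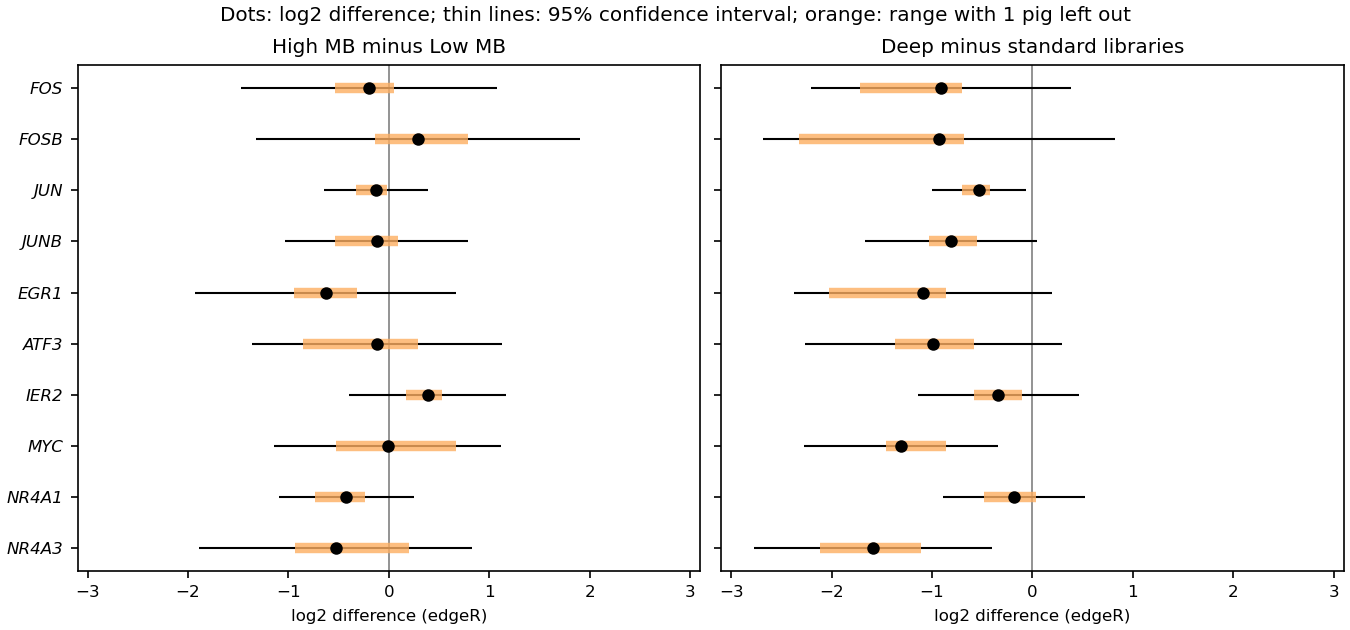
log2 difference of each immediate early gene between High MB and Low MB pigs (left) and between deep and standard libraries with the group in the model (right), as dots with 95% confidence intervals (thin lines) and the range over 12 fits with 1 pig left out (orange). All 10 intervals cross 0 on the left, and on the right those of JUN, MYC and NR4A3 lie below 0.

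The spread between pigs differed widely among the 10 genes. The highest pig exceeded the lowest by a median of 12 times, from 2.36 times in JUN to 72.6 times in FOSB, and the median over all genes tested was 2.16 times. The biological coefficient of variation, the relative spread that remains within groups after counting noise, was 0.869 in FOSB, 0.731 in NR4A3, 0.702 in EGR1, 0.691 in FOS and 0.674 in ATF3. It was 0.618 in MYC, 0.506 in JUNB, 0.441 in IER2, 0.382 in NR4A1 and 0.303 in JUN, against a median of 0.237 over all genes tested. Among the 500 genes nearest in level, JUN and IER2 stood at percentile 89.6, NR4A1 at 94.2 and the other members between 98.6 and 99.8. JUN had at least 5403 and FOS at least 691 counts in every library, while FOSB had 9 counts in Low MB pig 1 and at least 25 in the others.

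The same pigs tended to be high or low across the members. Low MB pig 4 ranked in the top 3 in 8 of the 10 genes and was the highest in EGR1, MYC and NR4A3. High MB pig 1 was in the top 3 in 6 genes and the highest in FOSB and JUN, and Low MB pig 5 was in the top 3 in 5 genes and the highest in FOS and NR4A1. High MB pig 2 was the highest in JUNB, ATF3 and IER2 and the lowest in NR4A1. At the other end, Low MB pig 1 was the lowest in 6 genes, Low MB pig 6 was in the lowest 3 in 8 genes, and High MB pig 5 in 7 genes. The high and the low pigs thus came from both groups and from both depth classes, with Low MB pig 5 the only deep library among the high ones.

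**Figure D3:**
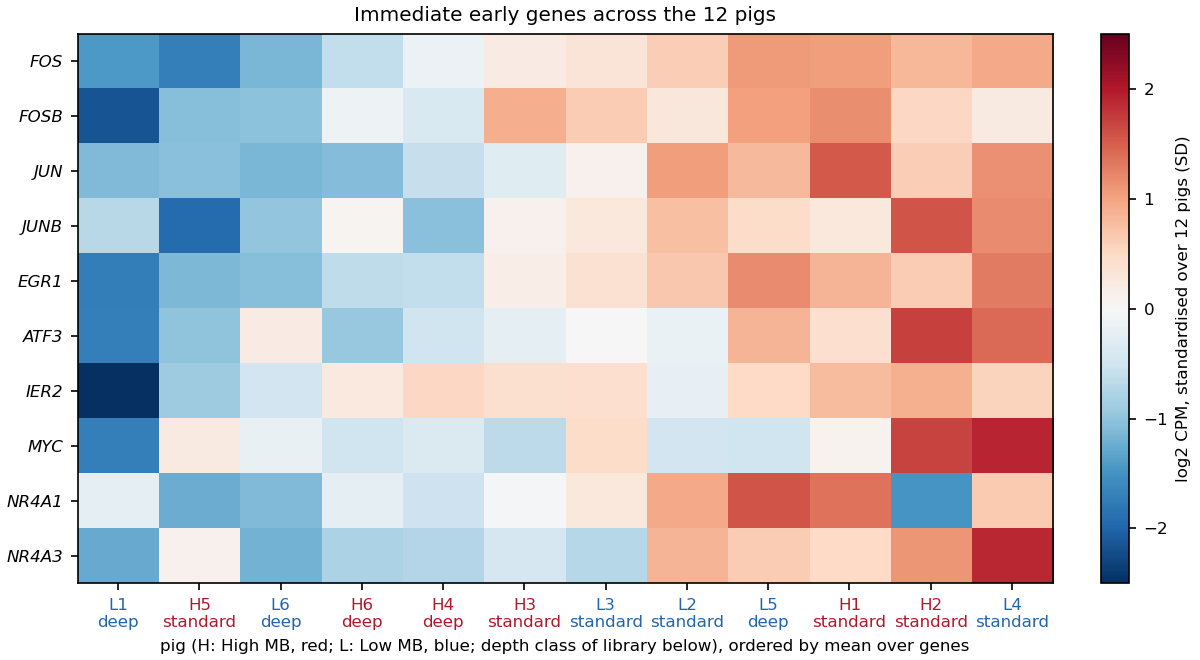
log2 CPM of each immediate early gene standardised over the 12 pigs (colour, in standard deviations), with pigs ordered by the mean over the 10 genes from lowest (left) to highest (right), High MB pigs in red, Low MB pigs in blue and the depth class under each name. Low MB pig 1, High MB pig 5 and Low MB pig 6 are at the low end, High MB pigs 1 and 2 and Low MB pig 4 at the high end, and NR4A1 departs from the others in High MB pig 2.

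Of the 45 pairs of members, 44 had a positive Pearson's r of log2 CPM over the 12 pigs, with a median of 0.70, and 22 had r over 0.7. In a permutation test of the pairings, 30 pairs had an adjusted p under 0.05 over the 45 pairs, and 29 with Spearman's rho. The test took no account of the depth class. Pairs of other genes were not computed, so these counts do not set the members apart from other genes. FOS and EGR1 were the closest pair (r = 0.96, permutation p = 2e-05, rho = 0.97, p = 3e-05), and r was 0.96 without the 2 pigs farthest from the median of FOS. JUN followed EGR1 (r = 0.92, permutation p = 5e-05, rho = 0.93) and FOS (r = 0.92, permutation p = 5e-05, rho = 0.90) with values of 0.93 and 0.94 without the 2 farthest pigs. FOSB and IER2 had r = 0.87 (permutation p = 0.00053) and rho = 0.66, and r was 0.65 without High MB pig 5 and Low MB pig 1.

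Taken as deviations from the group means, the values gave a median r of 0.71, and as deviations from the means of the depth classes 0.67, where 17 pairs were over 0.7 and 44 were positive. It was 0.69 within High MB, 0.81 within Low MB, 0.72 over the deep and 0.64 over the standard libraries. It was 0.72 when the pigs highest in MYC, High MB pig 2 and Low MB pig 4, were left out together, a choice made after the data were seen.

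The lowest correlation was that of MYC with NR4A1 (r = -0.15, permutation p = 0.646, rho = -0.22). The 9 pairs of NR4A1 had a median r of 0.40, or 0.72 once Low MB pig 4 and High MB pig 2 were left out. For the 9 pairs of MYC the median r was 0.52, or 0.30 once both were left out. The correlation of MYC with ATF3 went from 0.79 (permutation p = 0.0020, rho = 0.56) to 0.50 without these pigs, and that with NR4A3 from 0.71 (permutation p = 0.00861, rho = 0.52) to 0.30. The pairs share libraries and members, so they are not independent of each other.

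**Figure D4:**
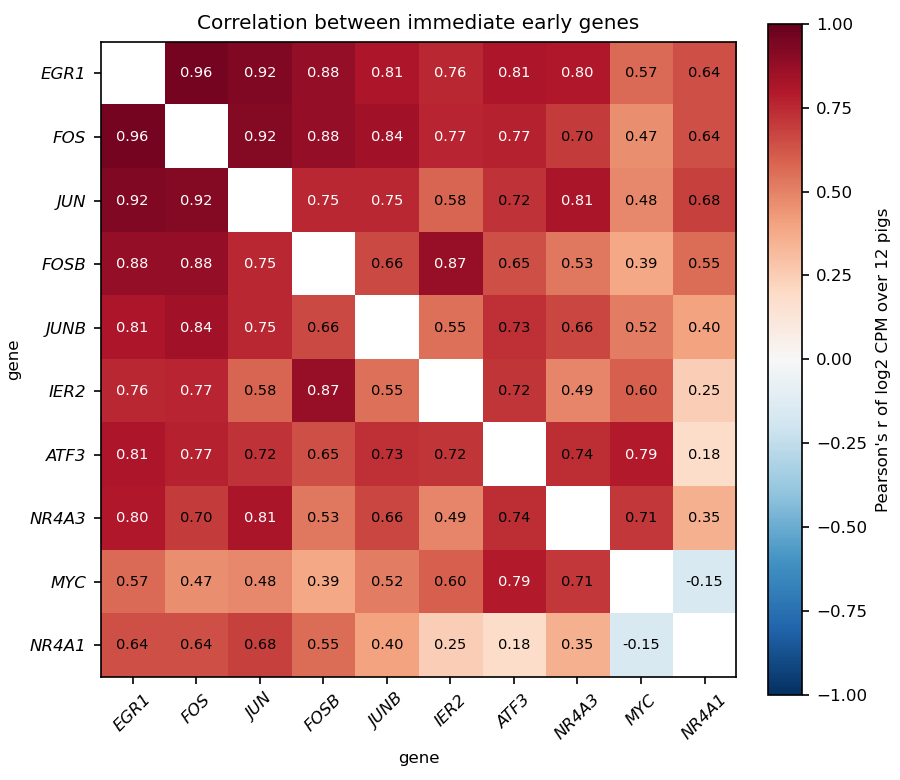
Pearson's r of log2 CPM over 12 pigs for each of the 45 pairs of immediate early genes (colour and printed value). The block of EGR1, FOS, JUN and FOSB is the closest, with FOS and EGR1 at 0.96, while NR4A1 and MYC in the last rows have the lowest values.

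The members were also compared between the deep and the standard libraries, with the group in the model, because each group held both depth classes. All 10 had lower fitted values in the deep libraries, with a median log2 difference of -0.92, and 51.4% of all genes tested were lower there. None was called (smallest adjusted p = 0.278 among the members), nor was any gene tested (0%, smallest adjusted p = 0.137), while 1854 genes had an unadjusted p under 0.05. Of the members, 3 were lower at an unadjusted p under 0.05, as were 8.08% of all genes tested. They were NR4A3 (log2 difference -1.59, standard error 0.55, edgeR adjusted p = 0.278), MYC (-1.31, standard error 0.45, adjusted p = 0.278) and JUN (-0.53, standard error 0.22, adjusted p = 0.320).

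The median in the deep and the standard libraries was 46.0 and 140 CPM for FOS, 9.85 and 32.1 CPM for EGR1, 1.30 and 3.96 CPM for NR4A3, and 101 and 126 CPM for NR4A1. Low MB pig 5 was deep and high in most members, and without it the log2 difference went from -0.91 to -1.72 for FOS, from -0.93 to -2.32 for FOSB and from -1.09 to -2.03 for EGR1. Other pigs moved the difference towards 0. Without Low MB pig 1 it was -0.70 for FOS, -0.68 for FOSB and -0.10 instead of -0.34 for IER2. Without High MB pig 2 it went from -0.99 to -0.58 for ATF3 and from -0.81 to -0.55 for JUNB. Without Low MB pig 4 it went from -1.31 to -0.86 for MYC and from -1.59 to -1.11 for NR4A3. Leaving out High MB pig 1 turned that of NR4A1 from -0.19 to 0.039. All tested markers of smooth muscle and pericytes, skeletal muscle and adipocytes were higher in the deep libraries. Their median log2 differences were 0.82 (5 genes), 0.40 (3 genes) and 1.06 (5 genes). Of these, 3, 2 and 1 had an unadjusted p under 0.05, against 13.9% of all genes tested in either direction. Of 5 macrophage markers, 3 were lower (median -0.40). What the deep libraries share besides depth is not given in the labels. Its part in these differences, and that of other cells, was not tested.

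Within the deep libraries, 2 High MB against 3 Low MB pigs, and within the standard libraries, 4 against 3, the group difference was taken both as the fitted log2 fold change and as the difference in mean log2 CPM. With so few pigs, several signs and sizes depended on the scale. In the deep class FOS had a fitted value of -0.56 but 0.16 in mean log2 CPM, and FOSB had -0.79 but 0.82. EGR1 had -1.07 fitted and -0.12 in mean log2 CPM there, ATF3 -0.95 and -0.58, and NR4A3 -0.61 and -0.19. In the standard class FOSB had 0.52 fitted and -0.0020 in mean log2 CPM, FOS -0.24 and -0.70, EGR1 -0.69 and -0.88, ATF3 -0.0094 and -0.22, and NR4A3 -0.78 and -0.43. MYC was positive in the deep class (0.29 and 0.37) and negative in the standard class (-0.34 and -0.28) on both scales. Fitted values in the deep and the standard class were -0.19 and -0.20 for JUN, -0.060 and -0.31 for JUNB, -0.44 and -0.44 for NR4A1, and 0.75 and 0.12 for IER2. In mean log2 CPM they were -0.16 and -0.26 for JUN, -0.066 and -0.63 for JUNB, -0.29 and -0.63 for NR4A1, and 1.06 and 0.032 for IER2, with the same signs. The interaction of group and depth class had unadjusted p between 0.413 and 0.972 for the 10 members, and their smallest p adjusted over all genes was 1.00.

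Myoglobin content separates the groups, so its relation to the members was computed within each group of 6 pigs. In the High MB group Pearson's r ran from -0.55 for JUNB (exact permutation p = 0.274, rho = -0.43, p = 0.419) to 0.16 for NR4A3 (exact permutation p = 0.747, rho = 0.20, p = 0.714). In the Low MB group it ran from 0.072 for NR4A3 (exact permutation p = 0.896, rho = -0.029, p = 1.00) to 0.43 for MYC (exact permutation p = 0.403, rho = 0.43, p = 0.419). Of the 10 members 0 had p under 0.05 in either group, and their smallest p adjusted over all genes tested was 0.994. These ranges depended on few pigs. Without High MB pigs 4 and 6, the 2 farthest from the median myoglobin content of their group and also its 2 deep libraries, r ran from -0.91 to 0.061 over the 4 others. It went from -0.37 to -0.91 for FOSB, from -0.26 to -0.86 for IER2, from -0.18 to -0.84 for FOS, from -0.55 to -0.82 for JUNB and from -0.20 to -0.81 for EGR1. The ranks moved less far, with rho over these 4 pigs of -0.60 for FOSB and JUNB, -0.41 for IER2 and -0.48 for FOS and EGR1, and a rho of 0.086 for IER2 over all 6. Of the 10 members, 7 had r under -0.5 over the 4 pigs and 3 had rho under -0.5. Without Low MB pigs 2 and 3, r ran from -0.014 for IER2 to 0.69 for JUNB in the Low MB group. These values over 4 pigs are a description and were not tested.

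Genes around the members in the pathway were described from 5 lists, holding 112 tested genes, 0 of them called. At an unadjusted p under 0.05, 6 were higher and 9 lower in High MB, against 5.33% and 3.13% of all genes tested. Of 16 other fast-induced transcription factors, 0 were higher and 1 lower at that level, with a median log2 fold change of -0.13. The lower gene was KLF10, a TGF-beta-induced repressor, with 50.2 ± 15.5 CPM against 77.3 ± 23.8 CPM (SD, n = 6 each) and a log2 fold change of -0.62 (edgeR adjusted p = 0.563, exact permutation p = 0.0758). BHLHE40, a clock-related repressor, had -0.61 (edgeR adjusted p = 0.589), and MAFF, a small MAF protein, also had -0.61 (adjusted p = 0.615).

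Of 29 feedback and signalling genes, 3 were higher and 2 lower at an unadjusted p under 0.05, with a median of -0.12. DUSP10, a phosphatase of the stress kinases p38 and JNK, had 24.1 ± 5.2 CPM in High MB against 39.3 ± 11.6 CPM in Low MB (log2 fold change -0.71, edgeR adjusted p = 0.563, exact permutation p = 0.0108). HBEGF, a ligand of the EGF receptor, had -0.91 (exact permutation p = 0.0584). SGK1, a serum- and glucocorticoid-induced kinase, had 17.1 ± 6.00 CPM against 10.4 ± 1.86 CPM (0.72, exact permutation p = 0.0173), and these 3 genes had an edgeR adjusted p of 0.563.

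Of 35 upstream kinases and regulators, 3 were higher and 6 lower at that level, with a median of -0.10. MEF2D, a muscle transcription factor, had the lowest edgeR p of the 35. Its values were 167 ± 10.4 CPM against 201 ± 9.07 CPM (log2 fold change -0.27, exact permutation p = 0.00216 without adjustment, the smallest possible). The kinases MAP2K1 and MAPK8, the latter encoding JNK1, each had -0.27 (exact permutation p = 0.00433 and 0.00866, edgeR adjusted p = 0.563 for these 3 genes). These genes varied far less between pigs than the members, with a median biological coefficient of variation of 0.193. Of 14 dimer partners and antagonists, 0 had p under 0.05 (median -0.072), and those with the lowest were MXD4 (0.29), MAX (-0.32) and BATF3 (0.90), with edgeR adjusted p between 0.612 and 0.654. Of 18 exertion-responsive muscle genes, also 0 did (median -0.056), and those with the lowest were SIK3 (-0.43), CSRP3 (0.66) and CCL2 (0.96), with edgeR adjusted p between 0.588 and 0.619.

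The lists were also set beside the members over the 12 pigs. The members were summarised by their mean level, each gene standardised over the pigs, and r with this mean was positive for 15 of 16 other fast-induced transcription factors (median 0.66), 29 of 29 feedback genes (median 0.58) and 18 of 18 exertion-responsive genes (median 0.45). It was positive for 16 of 35 upstream kinases and regulators (median -0.12), 7 of 14 dimer partners (median -0.10) and 49.5% of the 13363 other genes tested. An r over 0.7 was found in 6, 11, 1, 1 and 1 genes of the 5 lists in the order named, and in 2.82% of the other genes tested. In deviations from the depth class means, r was positive in 15, 29, 16, 18 and 7 genes in that order, and the medians were 0.64, 0.57, 0.31, 0.068 and 0.012, so those of the kinases and of the dimer partners changed sign. These values are a description, since the lists were chosen with results of these data known. In the depth comparison the fitted log2 difference was negative for all 18 exertion-responsive genes, with a median of -0.85, against 51.4% of all genes tested. Of these, 9 had an unadjusted p under 0.05, against 8.08% of all genes tested that were lower at that level, and none was called.

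**Figure D5:**
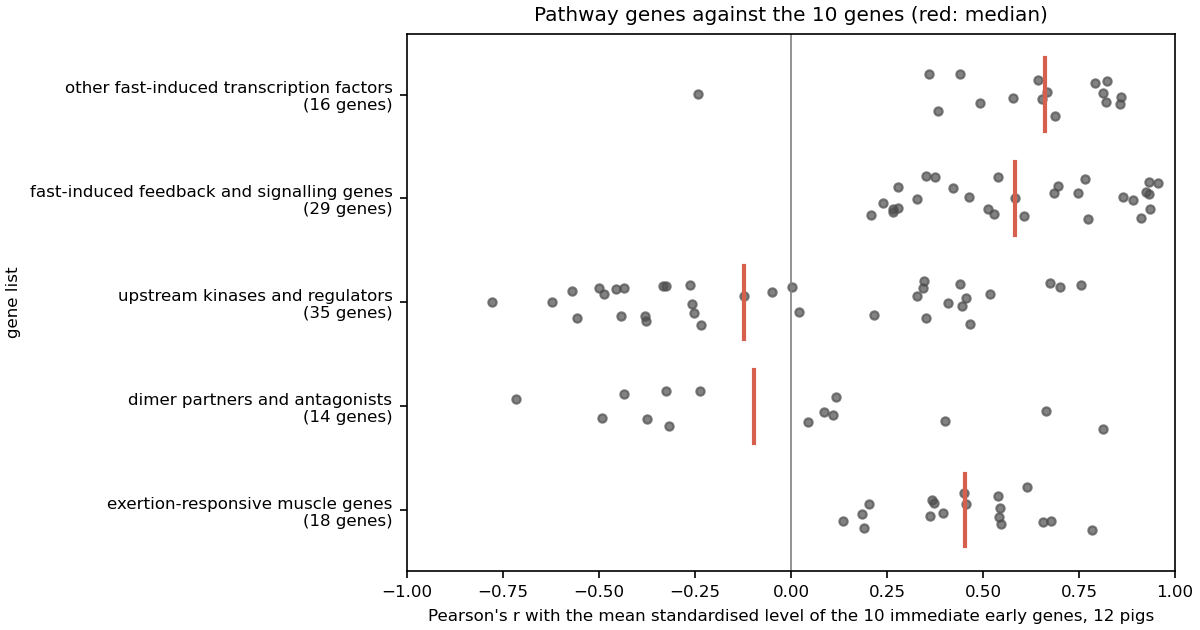
Pearson's r over 12 pigs between each gene of 5 pathway lists (1 point per gene, spread vertically for sight) and the mean standardised level of the 10 immediate early genes, with the median of each list in red. Other fast-induced factors (0.66) and feedback genes (0.58) lie to the right, and upstream kinases (-0.12) and dimer partners (-0.10) scatter around 0.

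The genes most like the mean level of the members over the 12 pigs were CCN1 (r = 0.96, rho = 0.93), CCNT2 (0.95, 0.94), THBS1 (0.94, 0.96), NEMF (0.93, 0.91), ZFP36L2 (0.93, 0.92), GADD45B (0.93, 0.89), ENSSSCG00000022925 (0.93, 0.94) and ADM (0.93, 0.94). CCN1 and THBS1 encode matrix proteins, CCNT2 a cyclin of transcription elongation, NEMF a ribosome quality control factor, ZFP36L2 an mRNA decay factor, GADD45B a stress sensor and ADM a vasodilator peptide. CCN1 ran from 6.57 to 72 CPM and GADD45B from 3.67 to 133 CPM, while CCNT2 ran only from 4.77 to 8.74 CPM. The most opposite were NFKBID (r = -0.94), HAUS8 (-0.92), TYK2 (-0.92) and CLCN7 (-0.91). In all, 16 of 13363 genes had r over 0.9, and none of these 12 named genes was called between the groups.

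Markers of other cell types that could be present in the loin were set beside the members. At an unadjusted p under 0.05, 4 of 5 macrophage, 2 of 5 fibroblast, 2 of 5 adipocyte and 2 of 2 tested erythroid markers were higher in High MB, against 5.33% of all genes tested, and none was called. The summed macrophage markers ran from 39.5 to 97.1 CPM in the High MB and from 21.6 to 47.0 CPM in the Low MB group. Their median r with the mean level of the members was 0.23, that of the adipocyte markers 0.30, of the fibroblast markers 0.018 and of the erythroid markers -0.52, and no marker had r over 0.7. In deviations from the depth class means, these medians were 0.12 for the macrophage, 0.52 for the adipocyte (5 of 5 markers positive), 0.094 for the fibroblast and -0.51 for the erythroid markers. On that basis 1 marker had r over 0.7, the satellite cell gene MYF5 (0.70, against 0.42 without the adjustment), which is named after its value was seen. The sums of T cell markers, from 0.949 to 3.25 CPM, were low in every pig. The part of other cells in the spread of the members was not tested beyond these values.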

How the data were processed

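The files held raw read counts per gene, deposited by the authors for 12 libraries of longissimus dorsi RNA. Paired-end reads were trimmed with Trim Galore, mapped with HISAT2 to Sscrofa11.1 and counted with htseq-count. The annotation release and strand setting are not given in the sources used here, and the library kit does not mark strand. Between 47.0% and 48.2% of counted reads were assigned to genes and between 50.9% and 52.0% to no feature, and rows that name no gene stayed out of library sizes. Transcript counts were not used here.

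The counts were analysed in R 4.3.3 with edgeR 4.0.16 (filterByExpr, TMM, quasi-likelihood test on 13373 genes, Benjamini-Hochberg adjustment) and, as an alternative, DESeq2 1.42.0. CPM values follow TMM scaling, and log2 CPM has a prior count of 2. Scripts were tested on simulated data. Intervals of fold changes give the uncertainty of the fitted difference, estimated from the spread between the pigs of this study, and do not cover the range of single pigs. Correlations used 100000 permutations of the pairings over 12 pigs, or all orders of 6 pigs, where the smallest p is 0.00139. Positions, exon lengths and sequences came from RefSeq for the same build. Symbols were matched to Ensembl gene IDs from a names table, which gave 14857 of 25880 genes a symbol, so a listed gene could lack a row.

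The members, the gene lists and the tests were chosen with earlier results of these data known. Named genes were all 10 members, of each pathway list the 3 with the lowest edgeR p, and the 8 genes most like and 4 most opposite to the mean of the members. Alternatives were other scaling, filters, thresholds, robust estimation, DESeq2, depth class as a covariate, each depth class alone, a replicate block, removal of the 10 most abundant genes and leaving out each pig. High MB pig 2 and Low MB pig 4 were left out together in a fit added after the data were seen.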

Additional observations from a re-analysis of the deposited data

Results flagged for a closer look

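In the 20 sets of 6 values formed by the 10 genes and both groups, 3 had an extreme pig by Dixon's criterion for 6 samples (gap to the nearest pig over the range of the group), where chance gives about 1 in 20. IER2 in High MB pig 5 was the lowest of its group at 1.93 CPM, with a gap of 0.636 of the range on the log2 scale. IER2 in Low MB pig 1 was the lowest of its group at 0.661 CPM, with a gap of 0.682 of the range. MYC in High MB pig 2 was the highest of its group at 15.2 CPM, with a gap of 0.628 of the range. In the same pig the muscle markers had their lowest and the macrophage markers their highest sum, and their part in the value of MYC was not tested.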

How the results depend on the processing

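The members called between the groups remained 0 under every alternative, and the genes called were 29 with DESeq2 and 1132 at an unadjusted p under 0.05, at which 15 listed pathway genes also passed. The log2 fold change of MYC, -0.014, was 0.026 with upper-quartile factors, 0.18 with the replicate block, 0.29 within the deep libraries and 0.16 without High MB pig 2 and Low MB pig 4. That of FOSB was -0.021 with the depth class as a covariate and -0.79 within the deep libraries. With 1 pig left out, it ranged from -0.54 to 0.055 for FOS, -0.14 to 0.79 for FOSB, -0.54 to 0.094 for JUNB, -0.86 to 0.29 for ATF3, -0.52 to 0.66 for MYC and -0.93 to 0.20 for NR4A3, and the median of the members from -0.46 to 0.15. JUN (-0.32 to -0.020), EGR1 (-0.95 to -0.31), IER2 (0.17 to 0.53) and NR4A1 (-0.74 to -0.24) kept their sign in these fits. The genes called between deep and standard libraries were 5 without the group term and 0 to 19 with 1 pig left out (19 without High MB pig 3), and the difference of NR4A1 was -0.48 to 0.039. Of the 8 genes most like the members, 4 were shared with Spearman's rho and 5 with deviations from group means. The causes were not tested. Equal individual numbers were not taken as pairs. Of the 6 same-numbered pairs, 1 correlated above 0.1 (-0.21 to 0.14), and no High MB pig correlated best with the Low MB pig of its number. Such correlations cannot exclude a weak pairing. The replicate block changed no call.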
